A study of Homo sapiens with 42 samples.

Results

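Chromatin loops of differentiated K562 cells, treated with PMA for 72 h, were compared with those of the same cells at 0 h. The comparison used 28 of the 42 Hi-C samples of the series, 14 at each time, which formed 4 biological replicate libraries at 0 h and 4 at 72 h. K562 is an established human leukemia cell line, labelled wild type, and all libraries came from this 1 line. PMA, a phorbol ester, was given at 25 nM, and the medium was renewed during the treatment. The samples at 0 h are the start of the same treatment series, and no vehicle control at 72 h was used here. The labels give the differentiation as megakaryocytic, and contacts do not measure RNA, so that state could not be checked against marker expression here. The third time point, 6 h, entered the fit only to estimate the spread between libraries.

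A chromatin loop is a pair of distant positions, its anchors, that touch more often than their surroundings. Many loops form when cohesin extrudes a loop of chromatin until it meets CTCF, and others join promoters to enhancers. PMA imitates diacylglycerol, the natural activator of protein kinase C, which signals through Ras and ERK to immediate early genes such as those of the EGR and AP-1 families. K562 cells have erythroid features, including the expression of fetal and embryonic globins, and phorbol esters are known to turn them away from that programme and toward megakaryocytes, the source of platelets.

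In situ Hi-C counts ligated pairs of DNA ends as contacts. The deposited table gave raw contacts for each loop, with anchors of 10 kb. It listed 33914 loops, of which 2 were repeats of another loop with the anchors swapped, so that 33912 were distinct. The 0 h libraries held 849544 to 1471628 contacts in loops and the 72 h libraries 988460 to 1180685. The first principal component carried 45.4% of the variance of the 8 libraries and separated 0 h from 72 h. No difference beyond sampling noise was found between 72 h replicates 3 and 4, so each mean counts them as 1 sample, with n = 4 at 0 h and n = 3 at 72 h. The edgeR fits kept them as 2 libraries unless stated. Levels are normalized counts, in contacts per 1000000 contacts of tested loops after TMM scaling. Each counts a whole pair of anchors, its local background included. Log2 fold changes are of 72 h over 0 h, with a prior count of 2 that draws those of weak loops toward 0.

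After 72 h of PMA, 8102 of 24130 tested loops differed from 0 h (edgeR quasi-likelihood test, Benjamini-Hochberg adjusted p under 0.05), which is 33.6% of the loops tested. Of these, 4021 were gained (16.7%) and 4081 were lost (16.9%). Gained loops had a lower median level at 0 h than lost loops. The median rose from 20.1 to 34.3 in gained loops and fell from 67.3 to 46.6 in lost loops. Loops that did not pass the test had a median of 25.5 at 0 h. The 0 h level is part of the fold change, so sorting by the call itself draws these 0 h medians apart. Among called loops, 539 gained and 134 lost changed by at least 2-fold, and 1292 gained and 2614 lost by less than 1.5-fold. Weak loops pass the test only at larger changes, and how far this shapes these counts was not tested. All 4 libraries of 72 h lay above all 4 of 0 h in 3435 loops (14.2%), and below them in 3406 (14.1%).

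The equal split of gains and losses depended on the scaling. With libraries scaled to their total count, 4665 loops were gained and 3386 lost. Replicates 1 and 2 had 3 technical replicates each and replicates 3 and 4 had 2. The labels name no batch. Within replicates 1 and 2, 4950 loops changed, and within replicates 3 and 4, 3948 did. None of the loops called both in the full fit and within such a pair had opposite directions. Each pair is part of the libraries of the full fit, so this is no independent check. Within replicates 3 and 4, the 72 h side holds the 2 libraries that did not differ beyond sampling noise. The spread used in that fit can therefore be too small. DESeq2 called 4974 loops, all of them among the 8102.

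**Figure D1:**
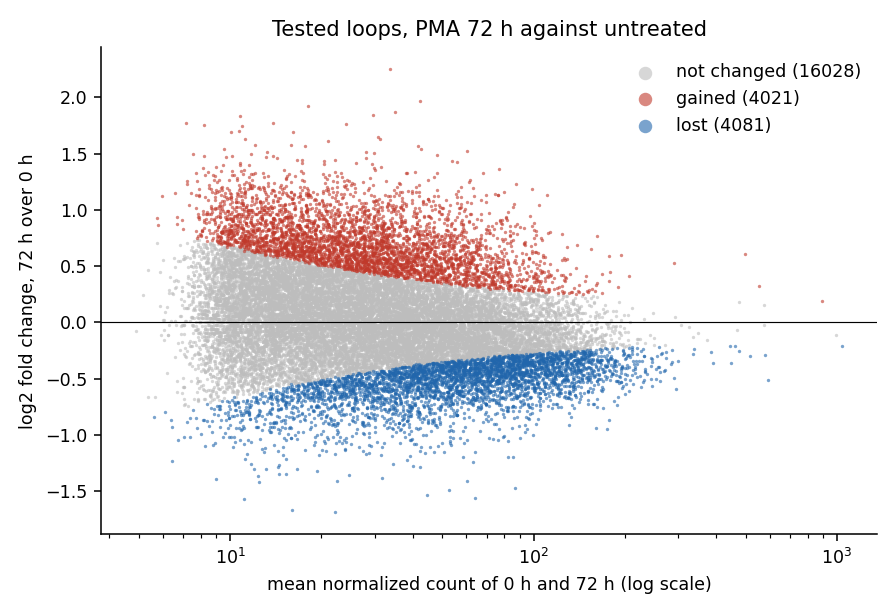
Log2 fold change of 72 h over 0 h (vertical axis) against the mean normalized count of both times (horizontal axis, log scale) for the 24130 tested loops. The 4021 gained loops (red) lie mostly at low counts and the 4081 lost loops (blue) reach the high counts; 16028 loops (grey) did not pass the test.

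Losses lay where genes are dense and gains where genes are few. Loops were grouped by the number of protein-coding genes in the 1 Mb window around their midpoint. In windows with 20 or more genes, 3.76% of 2899 tested loops were gained and 36.4% lost, and the log2 fold change had a median of -0.24. In windows with 10 to 19 genes, 10.1% were gained and 22.6% lost, with a median of -0.10. The split turned at 5 to 9 genes, with 18.9% gained, 14.1% lost and a median of 0.06. With 1 to 4 genes 25.2% of 6413 loops were gained and 7.56% lost, and the median was 0.21. In windows with 0 genes, 20.1% of 443 loops were gained and 4.74% lost, with a median of 0.25.

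Loop strength and length moved with gene density. The median raw count was 54.4 contacts per library in the densest windows and 13.6 in windows with 0 genes, which changes how easily a loop passes the test. The median length was 180 kb in the former and 630 kb in the latter. When the trend of the fold change with loop length was removed from each library, the medians from windows with 0 genes to the densest were 0.06, 0.11, 0.03, -0.09 and -0.18. The signs of these 5 medians were the same in every processing alternative, although the range was narrower with the length trend removed.

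The same pattern held for the anchors themselves. Among 15756 loops with no end of a protein-coding gene in either anchor, 18.8% were gained and 13.4% lost. Among 6972 loops with a gene end in 1 anchor, 13.8% were gained and 21.4% lost. Among 1402 loops with gene ends in both anchors, 6.63% were gained and 33.8% lost, and the median log2 fold change was -0.21. Short loops with genes at both anchors, of 30 to 100 kb, fell most often: 50.3% of 431 were lost and 3.94% gained. Loops of this length with no gene end had a median of -0.11, against -0.27 with gene ends at both anchors. Loops over 800 kb had positive medians in all these groups, of 0.38 with no gene end and 0.18 with gene ends at both anchors.

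Shares of contacts per library showed the shift without a model. Loops with gene ends at both anchors held 8.96%, 8.44%, 9.06% and 8.84% of all loop contacts in the 0 h replicates 1 to 4. They held 7.89%, 7.62%, 7.75% and 7.80% in those of 72 h, so that the times did not overlap. Loops in windows with 20 or more genes held 19.7% ± 0.46 (SD, n = 4) before treatment and 17.1% ± 0.15 (SD, n = 3) after 72 h. Loops in windows with 1 to 4 genes held 17.7% ± 0.47 (SD, n = 4) and 20.6% ± 0.27 (SD, n = 3). For each of the 8 classes of gene density and gene ends the 0 h libraries lay wholly on 1 side of the 72 h libraries. The two-sided exact permutation test gave p 0.0571 for each, also after Benjamini-Hochberg adjustment over the 8, which is the smallest p that 4 against 3 samples allow. With 72 h replicates 3 and 4 kept as 2 libraries, a choice made after seeing the data, it was 0.0286 for each of the 8, the smallest that 4 against 4 allow.

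**Figure D2:**
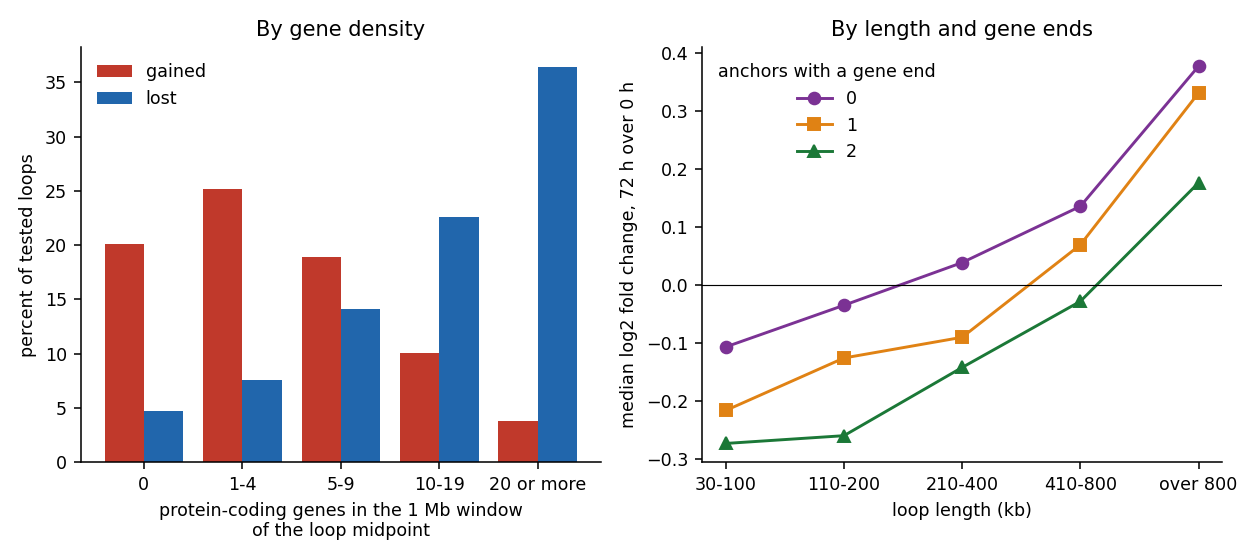
Left, percent of tested loops gained (red) and lost (blue) by the number of protein-coding genes in the 1 Mb window of the loop midpoint. Right, median log2 fold change by loop length for loops with a gene end in 0, 1 or 2 anchors. Losses reach 36.4% in the densest windows, and in each length class the line for gene ends in 2 anchors lies lowest.

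Chromosomes differed too. On chromosome 19, the richest in genes, 4.17% of 647 tested loops were gained and 35.4% lost. Its share of contacts was 4.48%, 4.12%, 4.56% and 4.42% in the 0 h replicates and 3.76%, 3.71%, 3.87% and 3.91% in those of 72 h, and every 72 h library was lower. Chromosome 17 followed, with 7.46% gained, 30.7% lost and a share that went from 4.62% ± 0.08 (SD, n = 4) to 4.13% ± 0.05 (SD, n = 3). At the other end, 24.6% of the loops of chromosome 5 were gained and 9.15% lost. Its share went from 4.99% ± 0.06 (SD, n = 4) to 5.55% ± 0.03 (SD, n = 3). On chromosome 2 the values were 22.9% gained and 9.48% lost, and on chromosome 13 the share went from 1.61% ± 0.04 (SD, n = 4) to 1.79% ± 0.03 (SD, n = 3). Chromosome 18 did not follow its gene density. Genes per Mb were counted over the length up to the last loop anchor, which includes stretches without loops. Chromosome 18 had 3.24 by this measure, next to the 2.76 of chromosome 13, yet 9.48% of its loops were gained and 17.4% lost. Its share was 1.22% ± 0.01 (SD, n = 4) at 0 h and 1.17% ± 0.01 (SD, n = 3) at 72 h, lower in every 72 h library. The 0 h and 72 h libraries were apart for 15 of 23 chromosomes, 6 higher and 9 lower at 72 h; each had an exact permutation p of 0.0571, or 0.0821 adjusted over 23. Across the 23 chromosomes, this measure of genes per Mb and the median log2 fold change had a Spearman coefficient of -0.70. That is a description of points that share the same libraries.

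Contacts were also summed in 1 Mb windows by loop midpoint. Of 2595 windows with at least 3 loops, 1670 changed (64.4%; edgeR quasi-likelihood test, adjusted p under 0.05), 998 higher (38.5%) and 672 lower (25.9%). With the length trend removed, 1235 of 2178 windows changed, 627 higher and 608 lower.

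The window with the largest rise, on chromosome 2 from 14000001 to 15000000, holds LRATD1. Its summed level was 20.3, 27.5, 15.1 and 25.0 in the 0 h replicates and 58.4, 56.2, 78.0 and 61.6 in those of 72 h, a log2 fold change of 1.44 (SE 0.18) with an edgeR adjusted p of 7.1e-10. The next, on chromosome 7 from 41000001 to 42000000, holds INHBA, which encodes a subunit of activin. It went from 52.0 ± 11.2 (SD, n = 4) to 133.0 ± 3.3 (SD, n = 3), with 4 gained loops and none lost. On chromosome 13 the window from 80000001 to 81000000, whose gene is SPRY2, rose by 1.32 with 6 gained loops, and the window from 106000001 to 107000000, with EFNB2, an ephrin ligand, rose by 1.19 with 3. The window from 35000001 to 36000000 on the same chromosome, with NBEA and DCLK1, rose by 1.2. The sixth window, on chromosome 14 from 86000001 to 87000000, has no protein-coding gene and a mean level of 4.09 at 0 h; its libraries overlapped between the times.

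The largest falls were smaller than the largest rises. On chromosome 14 the window from 73000001 to 74000000, with 19 genes, among them NUMB, an inhibitor of Notch signalling, and the acyl-CoA thioesterases ACOT1 and ACOT2, held 10 lost loops of 14. Its level was 781, 721, 710 and 726 in the 0 h replicates and 505, 499, 489 and 457 in those of 72 h, a log2 fold change of -0.60 with SE 0.05 (adjusted p 3.7e-15 by edgeR). The window from 12000001 to 13000000 on chromosome 11, with TEAD1, a transcription factor of the Hippo pathway, held 8 lost loops and went from 857 ± 24 (SD, n = 4) to 575 ± 13 (SD, n = 3). On chromosome 15 the window from 50000001 to 51000000 held 4 lost loops, with USP8, a deubiquitinase, and TRPM7, a cation channel, at their anchors. Windows on chromosome 14 from 39000001 (-0.58, with the splicing-associated PNN), chromosome 3 from 176000001 (-0.54, with no gene) and chromosome 9 from 28000001 (-0.80, a weak window at LINGO2 with a mean level of 9.99 at 0 h) completed the 6 largest falls.

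Loops with a gene end in an anchor are named next. An anchor may hold the start of a gene, its far end, or a gene end of unknown kind where the reference gave no strand, and it may also touch elements that are no gene. The 12 gained loops with the largest fold change, among those whose libraries did not overlap, are described first.

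SPRY2, an inhibitor of receptor tyrosine kinase signalling to ERK, had its start in the anchor of loop25755 (chromosome 13, anchors starting at 80040001 and 80340001). The loop had 5.79, 9.5, 11.3 and 15.9 normalized contacts in the 0 h replicates and 34.5, 25.1, 30.1 and 31.2 in those of 72 h, which did not overlap. The log2 fold change was 1.43 with SE 0.22 (adjusted p 5.8e-08 by edgeR). Of the 9 tested loops within 1000 kb of the SPRY2 start, 8 were gained and none lost. They lay mostly downstream of SPRY2, on the side toward which it is transcribed, and several lie inside each other. Among them loop25754, which ends 126 kb from the start site and touches no gene end, had the largest change, from 9.63 ± 1.61 (SD, n = 4) to 32.6 ± 5.4 (SD, n = 3), or 1.61 on the log2 scale. The 4 loops with an end of SPRY2 in an anchor rose by 1.18 to 1.46. Of them, loop25755 holds the start and the others hold the far end.

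ERG, an ETS factor of blood stem cells and megakaryocytes, had its far end in an anchor of loop32230 (chromosome 21, anchors starting at 38360001 and 39140001), 780 kb long. Its level was 10.1, 10.45, 8.78 and 15.9 in the 0 h replicates and 33.6, 28.1, 43.7 and 31.2 in those of 72 h. The 72 h libraries were all higher, and the log2 fold change was 1.45 with SE 0.21 (adjusted p 8.5e-09 by edgeR).

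SVIL encodes supervillin, which ties actin and myosin to the membrane, and its start lay in an anchor of loop20213 (chromosome 10, anchors starting at 29530001 and 29730001). The loop had 15.2, 24.7, 21.3 and 22.8 contacts in the 0 h replicates and 64.6, 54.2, 40.5 and 56.2 in those of 72 h, again without overlap. Its log2 fold change was 1.33 (SE 0.17). CTNNB1, which encodes beta-catenin, had its start in loop5364 (chromosome 3, anchors starting at 41100001 and 41190001). This loop went from 24.6, 28.5, 26.3 and 23.9 to 83.2, 62.2, 55.1 and 62.5, or 1.30 on the log2 scale.

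ITGA2 encodes the alpha subunit of the platelet collagen receptor and had its far end in loop11295 (chromosome 5, anchors starting at 52940001 and 53090001), together with that of MOCS2, of molybdenum cofactor synthesis. The values were 39.1, 37.0, 27.6 and 35.3 in the 0 h replicates and 91.1, 91.3, 84.2 and 85.7 in those of 72 h, a log2 fold change of 1.27 with no overlap. The largest rise of the 12 was that of loop27352 at C14orf132 (chromosome 14, anchors starting at 96000001 and 96090001), which went from 30.6 ± 5.0 (SD, n = 4) to 90.5 ± 7.7 (SD, n = 3), or 1.52. Rises were also large in loop17227, whose anchors both hold an end of CSGALNACT1, of chondroitin sulfate synthesis (1.38), and in loop17911 with ends of ELOC, or elongin C, and TMEM70 (1.32). They were of like size at LRATD1 (loop3342, 1.33), C10orf120 (loop21122, 1.30) and CCDC91 (loop23365, 1.29).

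The 12 lost loops with the largest fall lay on 10 chromosomes. The Rh-associated glycoprotein RHAG, part of the Rh complex of the red cell membrane, had its start in loop13807 (chromosome 6, anchors starting at 49630001 and 49780001), with PGK2, the testis form of a glycolytic enzyme, in the other anchor. Its level was 58.7, 49.4, 67.7 and 61.4 in the 0 h replicates and 25.7, 24.1, 29.1 and 23.2 in those of 72 h. The libraries did not overlap, and the log2 fold change was -1.15 with SE 0.16 (adjusted p 2.0e-09 by edgeR). The other 2 tested loops with an end of RHAG did not pass the test, with 0.18 and 0.08.

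Loop28882 (chromosome 16, anchors starting at 66400001 and 66850001) joined an end of CDH5, the cadherin of endothelial cells, to the far end of CA7, a carbonic anhydrase. It had 34.8, 38, 31.4 and 31.9 contacts at 0 h and 13.3, 6.02, 14.6 and 12.5 at 72 h, in replicate order, or -1.41 on the log2 scale. At NUAK2, a kinase related to AMPK, loop2758 (chromosome 1, anchors starting at 204990001 and 205320001) held the gene's start and went from 47.8, 35.1, 48.9 and 59.1 to 14.2, 12, 24.9 and 17.0, or -1.38. In both loops all 72 h libraries lay below all 0 h libraries.

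The largest fall was that of loop31110 on chromosome 19 (anchors starting at 50530001 and 50780001), which holds the small gene SMIM47. It went from 67.9 ± 8.5 (SD, n = 4) to 21.6 ± 10.6 (SD, n = 3), or -1.53. Loop27066 at HEATR4 (-1.49) lay in the window of chromosome 14 with the many lost loops. Others held an end of HOXC10, a homeobox gene (loop23756, -1.27), SMG8, of nonsense-mediated decay (loop29838, -1.19), or EPHB6, an Eph receptor, with TRPV6, a calcium channel (loop16946, -1.19). Loop21423 held an end of DKK3, of the dickkopf family, with USP47, a deubiquitinase (-1.16). Loop28376 joined SPSB3, EME2 and NUBP2 to MSRB1 (-1.15), loop21914 held OOSP4A (-1.41) and loop32385 DRICH1 (-1.36). In the authors' deposited table all 12 gained loops are classed as gained and all 12 lost loops as lost. Of all loops called here, 982 of the 4021 gained and 498 of the 4081 lost are in the corresponding class of the authors' deposited table. The calls here rest on an adjusted p alone, and 1292 gained and 2614 lost loops changed by less than 1.5-fold. The classes may rest on another threshold, so these counts do not measure agreement.

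**Figure D3:**
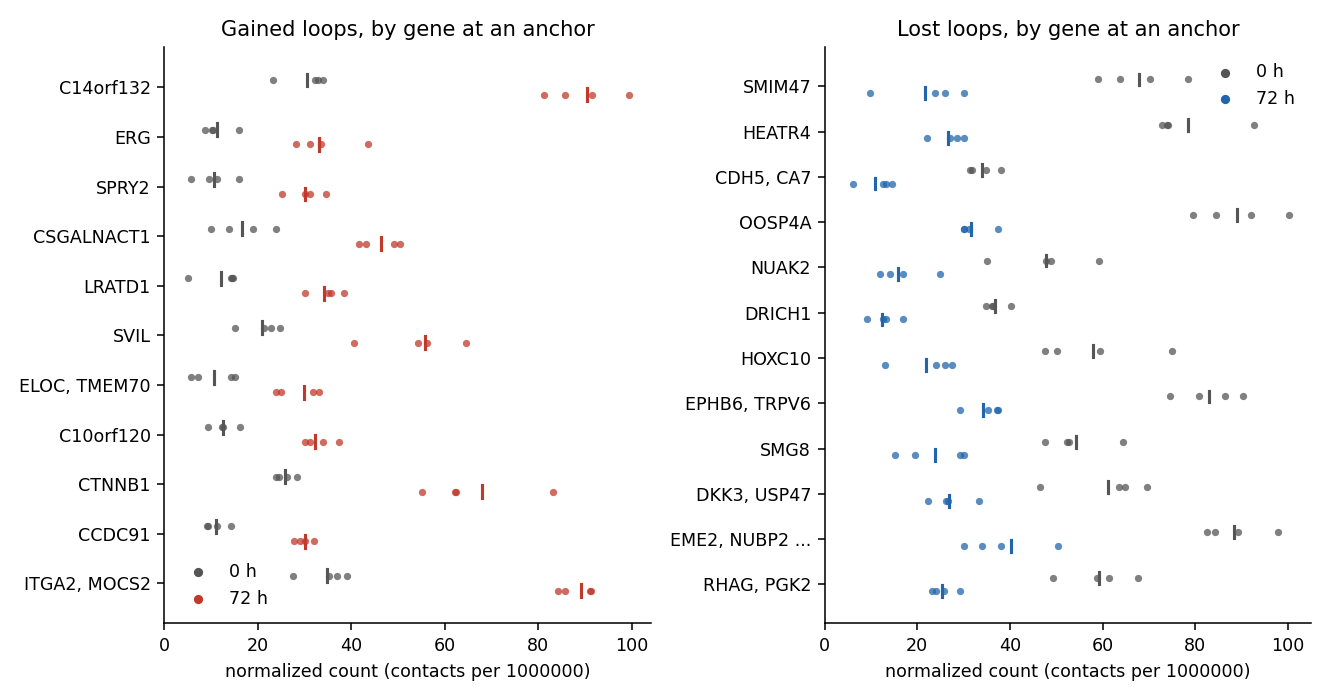
Normalized count of each library at 0 h (grey points) and 72 h (coloured points) for loops among the 12 gained and 12 lost with the largest fold change and a gene end in an anchor, named by that gene. Vertical bars are means, with 72 h replicates 3 and 4 counted as 1 sample; the times do not overlap in any of them, which the choice of loops requires.

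Genes of 10 lists were looked up at the anchors. The lists were chosen with earlier results of these data known, so any excess over the background is a description. Loops with a gene end in an anchor are the background for these lists: of 8374 such loops 12.6% were gained and 23.5% lost, and their median was -0.09 on the log2 scale. Loops of a list can share a gene or an anchor, so counts of loops are given with the number of genes. Some counts below also take gene ends up to 10 kb outside the anchor. No background was counted for that placement, so those counts show neither an excess nor a lack.

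The protein kinase C pathway, which PMA acts on, had 15 tested loops at 10 of 24 genes, of which 3 were gained and 4 lost, with a median of 0.05. PRKCE, an isoform of protein kinase C that phorbol esters activate, had its start in loop3568 (chromosome 2, anchors starting at 45650001 and 45700001). That loop had 65.9, 62.7, 55.2 and 59.1 contacts in the 0 h replicates and 111, 104, 108 and 99.97 in those of 72 h, without overlap, a log2 fold change of 0.76 with SE 0.12 (adjusted p 9.5e-08 by edgeR). RASGRP1, a Ras activator with a diacylglycerol-binding domain, had its start in loop27659, which rose from 43.9 ± 10.6 (SD, n = 4) to 62.9 ± 7.6 (SD, n = 3), or 0.52, with libraries that overlap. Within replicates 1 and 2 this change did not pass the test (adjusted p 0.23). At PRKCD, another phorbol ester receptor, 2 loops were lost; loop5530 fell by 0.31, and its call was lost when 0 h replicate 1 (adjusted p 0.063) or replicate 4 of 72 h (0.065) was left out. Of the list, 1 loop was lost without 72 h replicate 4, 2 without 72 h replicate 1 or 3 or 0 h replicate 1 or 4, and none with total-count scaling or DESeq2. The median was -0.01 without 72 h replicate 1.

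Loops at the listed AP-1 and immediate early genes, which respond to ERK, were gained more often than the background. The list was chosen with earlier results known, so this excess is a description. Of 49 tested loops at 17 of the 23 genes, 16 were gained (32.7%) and 7 lost (14.3%), with a median of 0.10. The gained loops lay at 8 genes, and 8 of the 16 were at SPRY2 and PHLDA1. EGR2, a zinc finger factor induced by growth signals, lies whole in an anchor of loop20451 (chromosome 10, anchors starting at 62610001 and 62810001). It had 37.0, 32.3, 50.2 and 33.0 contacts in the 0 h replicates and 82.3, 94.3, 89.4 and 88.4 in those of 72 h, without overlap. The log2 fold change was 1.19 with SE 0.14 (adjusted p 1.2e-12 by edgeR). PHLDA1, which is induced by the same signals, had 4 gained loops; in loop24027 the level went from 52.2, 51.3, 50.2 and 54.6 to 107, 92.3, 90.5 and 86.6, or 0.83.

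Other members of the list did not all move this way. Gained loops also lay at EGR3 (loop17269, 0.71), at SPRY4, a relative of SPRY2 (loop12603, 0.98), at the zinc finger factor KLF6 (loop19893, 1.21, and loop19889, 0.62) and at the AP-1 gene JUN (loop675, 0.57, and loop676, 0.40). The AP-1 gene JUND went the other way. Its loop30780 (chromosome 19, anchors starting at 18270001 and 18400001), which also holds ends of IQCN and SSBP4, had 138, 98.8, 146 and 125 contacts in the 0 h replicates and 61.9, 62.2, 81.1 and 71.4 in those of 72 h. That is a log2 fold change of -0.86 (SE 0.12), and all 72 h libraries were lower. MYC, a driver of proliferation, was singled out after its values were seen. Of its loops 3 were lost (loop18717 at -0.87, loop18709 at -0.60 and loop18707 at -0.51). Loop18713, which is 1570 kb long, was gained (0.69, adjusted p 0.046 by edgeR). Its other tested loops did not pass the test: loop18706, loop18708, loop18710, loop18711, loop18712, loop18714, loop18715 and loop18716. Over all loops with a gene end 23.5% were lost.

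Promoter sequences were read at the start sites that lie in gained anchors, to look for the AP-1 motif TGANTCA, which is its own reverse complement, and the GATA motif AGATAA, on both strands. The windows run from 250 bases before to 50 after the start site, from RefSeq (GRCh38.p14), of which 1 window per gene was searched for 15481 genes. TGANTCA was found in 5.7% of 386 promoters at genes with gained and no lost loops, in 4.86% of 1193 at genes with lost and no gained loops and in 5.97% of all. AGATAA was found in 8.81%, 5.7% and 7.75%, in the same order. Neither share was tested. Of the genes above, SVIL has a match to TGANTCA, with A in the middle, 96 bases before its start site. EGR2 has the GATA motif on the other strand, as TTATCT, 196 and 127 bases before its start site. Both promoters are shown 5′ to 3′ with these motifs in capitals, at chr10:29735752-29736051 and chr10:62819118-62819417, both on the minus strand. They lie in the anchors of the gained loops loop20213 and loop20451.
SVIL: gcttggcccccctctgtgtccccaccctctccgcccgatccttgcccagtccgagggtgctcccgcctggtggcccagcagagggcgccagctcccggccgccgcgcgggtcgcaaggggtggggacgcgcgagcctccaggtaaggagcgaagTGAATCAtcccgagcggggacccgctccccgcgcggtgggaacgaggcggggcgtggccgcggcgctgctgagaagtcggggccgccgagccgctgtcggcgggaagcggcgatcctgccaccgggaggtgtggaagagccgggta
EGR2: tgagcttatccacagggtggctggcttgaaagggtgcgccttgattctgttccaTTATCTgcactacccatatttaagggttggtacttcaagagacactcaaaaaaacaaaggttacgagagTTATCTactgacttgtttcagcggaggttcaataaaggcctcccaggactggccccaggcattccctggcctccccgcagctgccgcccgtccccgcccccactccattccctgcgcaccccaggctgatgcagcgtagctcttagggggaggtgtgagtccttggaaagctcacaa

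Blood transcription factors had 24 tested loops at 14 of 23 genes, of which 3 were gained and 10 lost (41.7%), with a median of -0.22. Apart from the loop at ERG, the gains were at MEIS1, a homeobox factor of stem cells and megakaryocytes (loop3716 at 0.80 and loop3722 at 0.33). MYB, a factor that keeps blood progenitors dividing, lost 2 loops. Its start lies in loop14993 (chromosome 6, anchors starting at 135060001 and 135180001), which had 68.8, 63.6, 69.0 and 46.6 contacts in the 0 h replicates and 46.0, 30.1, 34.3 and 25.9 in those of 72 h. The lowest 0 h library was only just above the highest 72 h library; the log2 fold change was -0.84 with SE 0.15 (adjusted p 4.2e-06 by edgeR). LYL1, a helix-loop-helix factor, and NFIX share an anchor of loop30701, which went from 190 ± 19 (SD, n = 4) to 135 ± 11 (SD, n = 3), or -0.52. BACH1, a repressor regulated by heme, had its start in loop32112, which fell by 0.57. Losses were also called at MAFK (loop15444, -0.91), IKZF1 (loop16123, -0.53), HHEX (loop20743, -0.42), ZFPM1, the GATA cofactor FOG1 (loop29148, -0.28), and LMO2 (loop21673, -0.23, adjusted p 0.049). The gained loops fell to 1 without 72 h replicate 2 and with DESeq2, and the lost ones to 7 without 72 h replicate 4. With gene ends up to 10 kb outside the anchor also taken, 11 of 55 loops were gained and 19 lost, and the median was -0.05.

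Megakaryocyte and platelet genes were split. Of 10 tested loops at 8 of 28 genes, 3 were gained and 3 lost, with a median of -0.09. Beside ITGA2, gains lay at THBS1, which encodes thrombospondin of platelet granules, and CD9, a tetraspanin of the platelet surface. Loop27668 at the THBS1 start (chromosome 15, anchors starting at 39390001 and 39580001) had 42.7, 39.9, 51.4 and 52.3 contacts at 0 h and 77.9, 60.2, 74.9 and 94.6 at 72 h, or 0.73 with no overlap. Loop22960 at the CD9 start went from 62.2 ± 6.3 (SD, n = 4) to 88.1 ± 10.1 (SD, n = 3), or 0.48. ITGB3, the beta subunit of the platelet fibrinogen receptor, went the other way: loop29727 (chromosome 17, anchors starting at 47230001 and 47310001) had 188, 158, 157 and 175 contacts in the 0 h replicates and 97.3, 101, 83.2 and 77.7 in those of 72 h. Its log2 fold change was -0.91 with SE 0.11 (adjusted p 2.8e-12 by edgeR). PLEK, or pleckstrin (loop3734, -0.36), and CLEC1B, the platelet receptor CLEC-2 (loop23025, -0.54, an anchor shared with CLEC12A or CLEC12B), were the other losses. With gene ends up to 10 kb outside the anchor also taken, 8 of 34 loops were gained and 6 lost.

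Erythroid genes lost loops and gained none. Of 19 tested loops at 13 of 29 genes, 13 were lost (68.4%, against 23.5% of all loops with a gene end), at 13 genes, and the median was -0.42. The 72 h libraries lay below all 0 h libraries in 11 of the 19, where 14.1% of all tested loops did so. That share was not counted over loops with a gene end, which were lost more often than all tested loops (23.5% against 16.9%). Loops at the erythroid genes were shorter than others, with a median of 120 kb against 240 kb over loops with a gene end. With the length trend removed 9 of the erythroid loops were lost and their median was -0.27. With gene ends up to 10 kb outside the anchor also taken, 22 of 41 loops were lost and 3 gained. The 6 that did not pass the test had log2 fold changes from -0.62 to 0.18.

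Beside RHAG, SLC25A37, or mitoferrin, which brings iron into mitochondria for heme synthesis, had the clearest fall. Its loop17282 had 176, 150.0, 173 and 169.5 contacts in the 0 h replicates and 104, 97.4, 93.6 and 104 in those of 72 h, without overlap, or -0.73 with SE 0.10 (adjusted p 3.2e-09 by edgeR). The alpha globin cluster held 2 lost loops: loop28356 with an end of HBQ1, or theta globin, and LUC7L (-0.60), and loop28358 with ends of HBA1 and HBA2 (-0.39). In the beta globin cluster loop21321 held an end of HBG2, a fetal globin (-0.44). Others lay at HEMGN (loop19540, -0.42), the erythroid factor KLF1 (loop30700, -0.41, counted under both lists, shared with CALR, DNASE2 and FARSA) and the erythropoietin receptor EPOR (loop30687, -0.34). HBA1 and HBA2, and HBG1 and HBG2, are near-identical copies, so the contacts counted at them are uncertain where reads could not be placed.

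The glycophorin genes, which encode sialoglycoproteins of the red cell surface, lost loops as a cluster on chromosome 4. Of the 11 tested loops within 500 kb of the GYPB start, 6 were lost and none gained. Loop10059 joined the start of GYPE to the start of GYPB (anchors starting at 143900001 and 144010001). It had 99.2, 97.8, 100.3 and 93.3 contacts in the 0 h replicates and 74.3, 66.2, 49.9 and 49.1 in those of 72 h. All 72 h libraries were lower, and the log2 fold change was -0.68 with SE 0.12 (adjusted p 3.3e-06 by edgeR). Loop10063, which touches no gene end and spans the interval from 45.6 to 95.6 kb upstream of the GYPB start, fell most, from 53.9 ± 10.2 (SD, n = 4) to 28 ± 1.3 (SD, n = 3), or -0.94. These genes too are close copies of each other, and how reads were divided between them is not given in the sources used here.

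The promoters of GYPB and GYPE show that likeness, and each carries AGATAA on the printed strand, 39 bases before the start site of GYPB and 45 before that of GYPE. They are shown 5′ to 3′ with this motif in capitals, at chr4:144019296-144019595 and chr4:143905510-143905809, both on the minus strand of GRCh38.p14. They are the ends that loop10059 joins.
GYPB: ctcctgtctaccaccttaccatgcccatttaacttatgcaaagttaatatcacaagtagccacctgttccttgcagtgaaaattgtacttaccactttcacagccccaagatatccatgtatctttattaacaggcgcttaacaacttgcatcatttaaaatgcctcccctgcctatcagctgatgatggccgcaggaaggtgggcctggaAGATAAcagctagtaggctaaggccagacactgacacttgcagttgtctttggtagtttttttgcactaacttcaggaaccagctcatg
GYPE: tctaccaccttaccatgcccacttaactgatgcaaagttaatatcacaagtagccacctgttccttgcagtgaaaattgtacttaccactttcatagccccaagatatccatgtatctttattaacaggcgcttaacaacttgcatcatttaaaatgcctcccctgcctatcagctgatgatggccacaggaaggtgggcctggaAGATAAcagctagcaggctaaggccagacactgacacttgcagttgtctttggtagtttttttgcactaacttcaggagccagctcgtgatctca

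**Figure D4:**
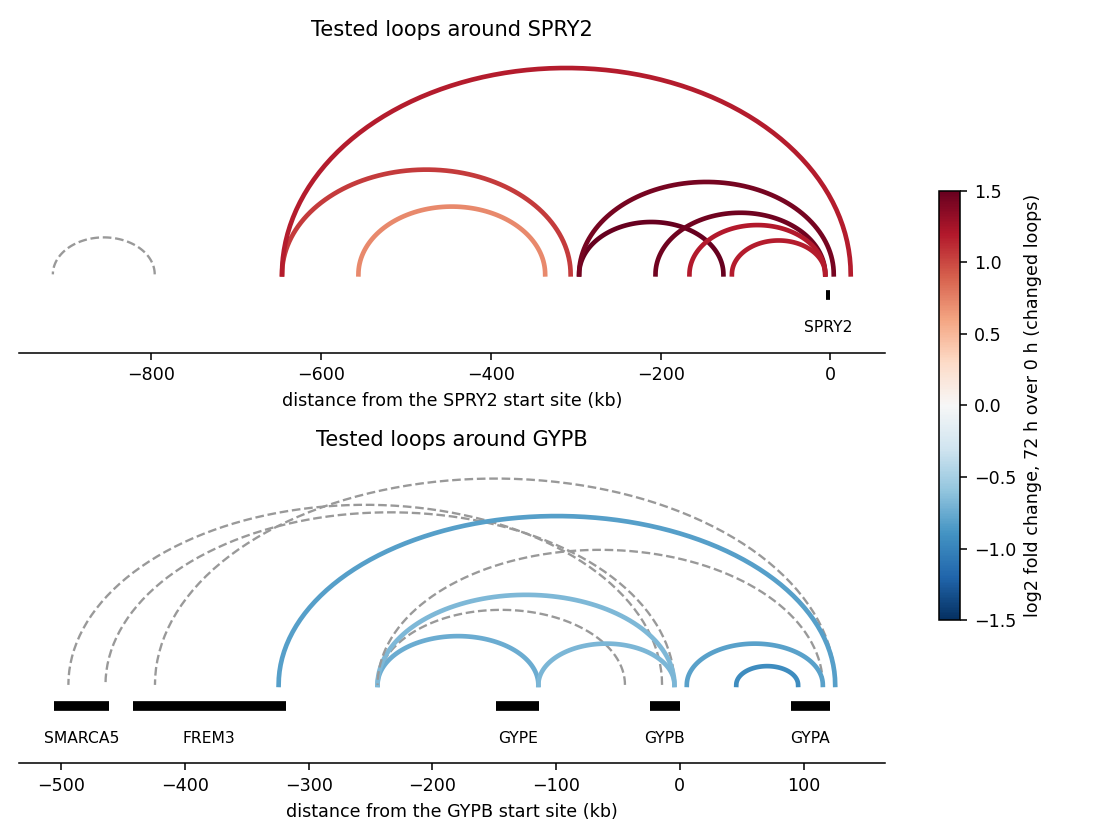
Tested loops around the start sites of SPRY2 (top) and GYPB (bottom), as arcs between the centres of their anchors, by distance from the start site in kb. Colour gives the log2 fold change of changed loops and dashed grey arcs did not pass the test; 8 of 9 loops are gained around SPRY2, and 6 of 11 are lost around GYPB. Both plots have the orientation of the chromosome and arc heights carry no value.

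Monocyte and macrophage genes, which mark another fate that phorbol esters can induce in myeloid cells, gained no loops in the full fit. Over all loops with a gene end 12.6% were gained, so no gain among 13 loops is near that background. Of 13 tested loops at 9 of 15 genes, 5 were lost (38.5%), with a median of -0.29. They lay at SPI1, the factor PU.1 (loop21810, -0.38), at ITGAX (loop28675, -0.86, and loop28677, -0.75) and ITGAM (loop28661, -0.72), which encode integrin subunits of myeloid cells, and at CEBPD, a factor of myeloid genes (loop17539, -0.57). With the length trend removed, 1 loop of the list was gained and 4 were lost. The loop at SPI1 is 30 kb long and did not pass the edgeR test in that setting (adjusted p 0.19). That at ITGAM was not past the threshold without 72 h replicate 1 (adjusted p 0.12). The median of the list was -0.18 without 0 h replicate 1, and over the 9 loops with a mean count of at least 20, of which 3 were lost, it was 0.03.

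Adhesion and matrix genes lost loops more often than the background. Of 25 tested loops at 16 of 33 genes, 14 were lost (56.0%) and 4 gained (16.0%), with a median of -0.33. Integrin genes account for several. ITGB5, a beta subunit that binds vitronectin, has its start and its far end in the 2 anchors of loop6949 (chromosome 3, anchors starting at 124760001 and 124900001), so that the loop spans the gene. The level was 117, 118, 129 and 130 in the 0 h replicates and 71.7, 57.2, 67.6 and 59.8 in those of 72 h, without overlap, a log2 fold change of -0.91 with SE 0.12 (adjusted p 9.0e-11 by edgeR). The far end of ITGA5, the alpha subunit of the fibronectin receptor, lay in loop23761, one of the strongest loops named here, which went from 270 ± 11 (SD, n = 4) to 191 ± 18 (SD, n = 3), or -0.53. Losses were also called at ITGB1 (loop20242, -0.56) and ITGA3 (loop29771, -0.59), while at ITGA1, the neighbour of ITGA2, loop11292 was gained (0.58).

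CD44, a receptor for hyaluronan, had loops that moved in opposite directions. Loop21694 (chromosome 11, anchors starting at 34990001 and 35230001), which holds its far end, went from 57.2, 39.9, 56.4 and 50.04 to 26.6, 22.1, 20.8 and 36.6, or -0.88, and 2 more of its loops were lost. Loop21698 was gained, from a mean of 51.8 to 83.5, or 0.69 (adjusted p 2.5e-05), with libraries that overlap. TPM1, an actin-binding tropomyosin, also had a gained loop (loop27931, 0.55) and a lost one (loop27934, -0.45). ANXA2, an annexin of the cell membrane (loop27914, -0.66), PXN, or paxillin (loop24665, -0.42), and MYL9, a myosin light chain (loop31645, -0.37), were at lost loops. The tetraspanin CD63 was at a gained loop (loop23779, 0.30). The gained loops of the list numbered 2 without 0 h replicate 2 and with DESeq2, and within replicates 3 and 4 none were gained and 10 were lost. With gene ends up to 10 kb outside the anchor also taken, 22 of 59 loops were lost and 8 gained, and the median was -0.15.

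NF-kB and cytokine genes had 24 tested loops at 13 of 26 genes, 2 gained and 6 lost (25.0%), with a median of -0.17. The lost share is near the 23.5% over all loops with a gene end. NFKB2, a subunit of NF-kB, was at loop20873, a weak loop that went from 12 ± 1.1 (SD, n = 4) to 4.53 ± 1.72 (SD, n = 3), or -1.09 (adjusted p 0.0025). Loop22463 at BIRC3, an inhibitor of apoptosis, fell by 0.65, from 73.2, 60.8, 65.2 and 85.3 to 43.4, 52.2, 42.6 and 40.2. At CD83, a surface protein of activated immune cells, loop13329 was gained (0.88). TNFAIP3, an inhibitor of NF-kB signalling, had both a gained loop (loop15038, 0.31) and lost ones (loop15046, -0.33, and loop15045, -0.30). Only 1 gain was called without 0 h replicate 2 or 72 h replicate 1 or 3, and 17 of 47 loops were lost with gene ends up to 10 kb outside the anchor.

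Cell cycle genes had 27 tested loops at 15 of 29 genes, 3 gained and 9 lost (33.3%), with a median of -0.10. At CCND1, or cyclin D1, loop22043 (chromosome 11, anchors starting at 69100001 and 69640001) had 65.9, 55.1, 47.7 and 56.9 contacts in the 0 h replicates and 28.3, 22.1, 18.7 and 33.9 in those of 72 h. The times did not overlap, and the log2 fold change was -1.08 with SE 0.16 (adjusted p 1.6e-08 by edgeR). A longer loop at the gene, loop22036, was lost (-1.39) and a shorter one, loop22054 of 200 kb, was gained (0.68). Other losses were at AURKA, a mitotic kinase (loop31873, -0.70, with CSTF1, CASS4 and RTF2), CCND3, or cyclin D3 (loop13700, -0.53), and E2F1, a factor of S phase genes (loop31598, -1.04). Without 0 h replicate 1 there was 1 gained loop, with DESeq2 5 were lost, and the median over loops with a mean count of at least 20 was -0.01.

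Genes of the loop machinery itself had 15 tested loops at 8 of 18 genes, 1 gained and 4 lost (26.7%), with a median of -0.16. The lost share is near the 23.5% over all loops with a gene end. The lost loops held the starts of STAG2 (loop33656, -0.54) and STAG1 (loop7149, -0.59), the alternative subunits of cohesin, of MAU2, part of the cohesin loader (loop30792, -0.63), and of PDS5A, a cohesin regulator (loop8531, -0.41). Each of the last 3 missed the threshold without a single library: STAG1 without 0 h replicate 2 (adjusted p 0.059), MAU2 without 72 h replicate 2 (0.060) and PDS5A without 72 h replicate 4 (0.058). The 1 gain was not called without 0 h replicate 1, 2 or 4 or 72 h replicate 1 or 2, and the median was -0.29 without 0 h replicate 2. With gene ends up to 10 kb outside the anchor, 16 of 46 loops were lost and 1 gained.

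**Figure D5:**
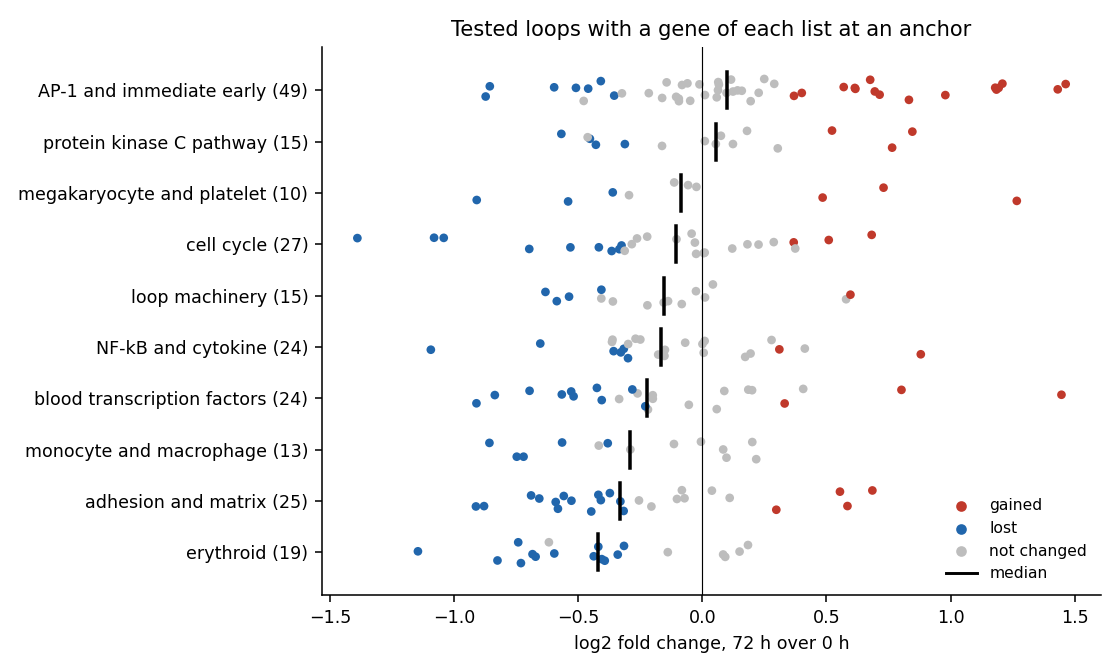
Log2 fold change of each tested loop with a gene of the list in an anchor, for 10 gene lists with the number of tested loops in parentheses, ordered by median (black bar). Red points were gained and blue points lost; all 13 changed erythroid loops lie below 0, and AP-1 and immediate early genes have the highest median, at 0.10.

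Anchors shared by many loops tended to hold changes of 1 direction. Of 32084 anchors with a tested loop, 1013 had at least 2 gained and no lost loops, 839 had at least 2 lost and no gained loops, and 329 had both kinds. The anchor with most gains, on chromosome 1 from 172740001 to 172750000, took part in 9 tested loops of which 7 were gained, and lies 73.1 kb from FASLG, which encodes the ligand of the death receptor FAS. An anchor on chromosome 12 from 114660001, next to the T-box gene TBX3, had 5 gained of 6, and one on chromosome 8 from 92070001, inside RUNX1T1, a corepressor gene known from a leukemia fusion, had 5 of 7. Another with 5 of 6 lay on chromosome 1 from 222450001, near HHIPL2. The anchor with most losses, on chromosome 15 from 81260001 to 81270000 inside IL16, a cytokine gene, lost all 5 of its loops, with log2 fold changes from -1.47 to -0.63. Anchors inside ARHGAP6 on chromosome X and near EXOC1L on chromosome 4 lost 5 of 6 each, and an anchor inside PTK2, which encodes focal adhesion kinase, lost 4 of 5. These anchors were chosen for their counts, which are therefore a description.

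Few tested loops appeared from a level near 0. The filter on low counts left 9782 loops untested, which limits how many such loops could be found in either direction. A loop near 0 at one time passes it only through another time, as loop17880 below did through its 72 h counts. Of the gained loops with a non-overlapping rise, 1 had at most 3 raw contacts in every 0 h library: loop17880 on chromosome 8, with anchors starting at 72310001 and 73660001, at 2.17, 2.85, 1.25 and 2.27 normalized contacts at 0 h and 10.6, 13.1, 11.4 and 14.3 at 72 h. No lost loop fell to that level in every 72 h library. Gene ends of 7010 protein-coding genes lay in anchors of tested loops; 1008 genes had a gained loop, 2566 a lost loop and 105 both.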

How the data were processed

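In situ Hi-C of K562 cells was deposited as raw contact counts per loop, 1 column per technical replicate, per the file headers. Each sum over columns gave 1 library per biological replicate. The authors also deposited log2 fold changes, an adjusted p-value and a class for each loop, per the file headers; only the class was used. The submitters' processing notes name hg38, Juicer 1.5.6 and DESeq2 without roles; the loop caller is not given in the sources used here. The fit used edgeR 4.0.16 under R 4.3.3 (filterByExpr with minimum count 10 and minimum total 15, TMM, quasi-likelihood test, 1 model of 12 libraries, no covariate, Benjamini-Hochberg threshold 0.05). Windows of 1 Mb by loop midpoint were fitted with the library sizes of the loops. Standard errors are the log2 fold change over the root of F. The scripts were tested on simulated data. Shares were compared by two-sided exact permutation tests. Protein-coding RefSeq genes (GRCh38.p14) were assigned to anchors that contain either of their ends. The alternatives tried were other scalings and filters, DESeq2 1.42.0, a length correction (loess, span 0.3), a batch term, a replicate block, leaving out libraries and wider gene placement.

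Named loops are the 12 gained and 12 lost loops with the largest fold change (libraries not overlapping, mean raw count at least 20, a gene end in an anchor, 1 per 1 Mb), up to 4 genes per list by smallest p, the 6 windows with the largest rise and fall, the 4 anchors with most gains and losses, and loops with at most 3 contacts at a time. Other loops of the lists are given because they were called, and anchor and promoter examples because they adjoin these. Some loops that this rule names are not reported here. Members and lists were chosen with earlier results of these data known. The labels call the replicates biological and do not name separate cultures. Counts carry counting error that limits weak loops: the median tested loop had 30.6 raw contacts per library.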

Additional observations from a re-analysis of the deposited data

Results flagged for a closer look

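Among the values reported, 92 groups of 4 libraries at 0 h were examined for a library far from the other 3, and 4 were found, where chance gives about 4.6. The 72 h groups were not examined, because they hold 3 samples. Loop3342 at LRATD1 had 5.02 normalized contacts in 0 h replicate 3, and 14.2 to 14.8 in the others. Loop27352 at C14orf132 had 23.2 in 0 h replicate 1, and 32.3 to 33.9 in the others. Loop27066 at HEATR4 had 92.7 in 0 h replicate 1, and 72.7 to 74.1 in the others. Loop20873 at NFKB2 had 13.7 in 0 h replicate 4, and 11.3 to 11.6 in the others. All 4 loops were past the threshold without the library in question.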

How the results depend on the processing

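The count of 8102 changed loops was 8051 with total-count scaling, 8149 with RLE factors and 8797 with no filter. It was 6504 of 16462 loops with a mean count of at least 20, and 8179 with only the 8 libraries of 0 h and 72 h. A term for replicates 1 and 2 against 3 and 4 gave 8428. The count was 7069 with the length correction and 7889 with 72 h replicates 3 and 4 summed. It was lower with fewer libraries or a stricter rule: 4950 within replicates 1 and 2, 3948 within replicates 3 and 4, 5207 at an adjusted p under 0.01, and 4974 with DESeq2, with or without its independent filtering, the latter chosen after seeing the data. Leaving out 1 library gave 6435 to 7594 changed loops. In none of these did a loop called in both fits reverse, except 2 with the length correction.

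The share of gained loops among the changed, 49.6%, was 57.94% with total-count scaling, 48.51% with RLE factors, 46.33% with no filter, 48.14% with a mean count of at least 20, 45.85% within replicates 3 and 4, and 47.25% with DESeq2, with or without independent filtering; leaving out 1 library gave 46.93% to 50.22%. Changed windows numbered 925 of 1394 with windows of 2 Mb, 1478 to 1679 without 1 library, and 1159 to 1785 in the other alternatives. The share of higher windows among the changed was 59.8%, against 50.4% with no filter and 46.5% with a mean count of at least 20. The cause of these differences was not tested.

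Lost erythroid loops numbered 8 within replicates 3 and 4 and 22 with gene ends within 10 kb, and gained AP-1 and immediate early loops numbered 10 within replicates 3 and 4. Chromosomes without overlap numbered 15 to 17. Of the 61 named loops, the 24 with the largest change were past the threshold in every alternative that tested them, and none of the 61 reversed. With replicate numbers as a block (replicate block) 8559 loops and 1785 windows changed, and no named loop lost its call. Deviations of same-numbered samples correlated at 0.02 to 0.06, so the numbers were not taken as pairs. Each 0 h replicate did correlate best with the 72 h replicate of its own number. Of the 72 h replicates only replicate 3 did not, with 0.022 for 0 h replicate 4 and 0.020 for 0 h replicate 3.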
